A study of Mus musculus with 3 samples.

Results

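Complement components and regulators were examined in mouse kidney as 8 genes: the classical pathway proteases C1ra and C1s1, the component C4b, the central component C3, the alternative pathway protease factor B (Cfb), the inhibitory protease factor I (Cfi), and the membrane regulators Cd55 and Cd59a. The genes were taken by symbol, and all 8 were among the 33696 genes counted. A further 46 complement genes were read beside them. Kidneys of male mice were profiled by 3′ single-cell RNA sequencing, and each of 3 groups gave 1 library: young mice of 3 to 4 months, aged mice of 20 months that received vehicle, and aged mice of 20 months that received D+Q. D+Q is the usual short name of the senolytic pair dasatinib and quercetin. The sources used here do not state the dose, the schedule or how many mice went into a library. With 1 library per group no difference has a replicate check, no test was made, and each interval covers counting error only.

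Complement is a cascade of plasma and membrane proteins that marks surfaces for clearance and can form a pore in a membrane. In the classical pathway the proteases C1r and C1s, bound to C1q, cleave C4 and C2. In the alternative pathway factor B joins cleaved C3 and factor D cuts it, which amplifies C3 cleavage. Factor I degrades active C3 and C4 fragments with the help of cofactors, CD55 speeds the decay of the convertases, and CD59 blocks the assembly of the pore. The liver supplies most of the circulating proteins, and kidney tubule, stromal and immune cells also express some of these genes, C3 among them.

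The filters left 7694 young cells, 5709 from the aged and 7416 from the aged D+Q library, and their median depth was 2387, 1876 and 2285 UMI counts. Of 22580 distinct barcodes, 99 occurred in more than 1 library. Cells were classed by a gate of at least 4 UMIs from at least 3 different markers of a class. Tubule cells numbered 6335 young, 4946 aged and 6404 aged D+Q, endothelial cells 715, 369 and 516, stromal cells (fibroblast or mural gate) 151, 100 and 163, and leukocytes 44, 45 and 39. Levels are CPM, counts scaled to a common class total, with 95% Poisson intervals, and ratios are log2 of the CPM ratio with exact binomial intervals. Proximal tubule RNA was present in every class: a UMI of Slc34a1, a proximal phosphate carrier, was found after thinning to 1000 UMIs in 89.1%, 91.0% and 90.6% of tubule cells (young, aged, aged D+Q), and also in 83.2%, 90.8% and 78.9% of endothelial cells and 81.8%, 86.7% and 87.2% of leukocytes. The median depth of these classes lay between 1830 and 2863.5 counts. Shares and levels of tubule genes in other classes are therefore set beside Slc34a1.

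C3, on which all activation pathways meet, was higher in the aged than in the young library in both tubule and stromal cells, and lower in aged D+Q than in aged. In tubule cells C3 had 78 counts in young (4.89 CPM, 3.87 to 6.11), 143 in aged (14.0 CPM, 11.8 to 16.5) and 139 in aged D+Q (8.96 CPM, 7.53 to 10.6). The 3 intervals did not overlap, with aged highest and aged D+Q between the others. In stromal cells C3 had 25 counts in young (56.1 CPM, 36.3 to 82.8), 378 in aged (1620 CPM, 1461 to 1792) and 38 in aged D+Q (81.9 CPM, 58.0 to 112). Aged stood far above both other libraries, whose intervals overlapped. Over all kept cells C3 reached 7.46, 43.4 and 10.4 CPM, and 378 of its 571 aged counts lay in the 100 stromal cells.

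The tubule difference was spread over many cells. The log2 ratio of aged over young was 1.52 (1.11 to 1.94), that is 2.86-fold, and that of aged D+Q over aged was -0.65 (-0.996 to -0.301). A C3 UMI was found in 55 of the 6335 young tubule cells, 110 of the 4946 aged ones and 116 of the 6404 aged D+Q ones, and 51, 98 and 103 of these held a single C3 UMI. After each cell was thinned to 1000 UMIs the share with C3 was 0.316% (0.193 to 0.487) in young, 1.21% (0.927 to 1.56) in aged and 0.906% (0.688 to 1.17) in aged D+Q, against 0.868%, 2.22% and 1.81% without thinning. The thinned aged and aged D+Q shares overlapped, and both lay above young. A single young tubule cell held 21 of the 78 young counts; without the cells of 5 or more C3 UMIs the levels were 3.58, 11.8 and 8.25 CPM and the log2 ratios 1.72 and -0.52.

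Cells that expressed proximal markers more than distal ones carried most of this signal, as they did of all tubule counts. They held 14424147 of 15943578 counts in young, 9586160 of 10186666 in aged and 14078924 of 15518431 in aged D+Q. In these proximal-led tubule cells C3 reached 4.92, 14.6 and 9.38 CPM in young, aged and aged D+Q. In distal-led cells it rested on 2, 3 and 7 counts, too few to order the libraries. The distal-led C3 level was 27.9%, 35.4% and 52.4% of the proximal-led level, where Slc34a1 stood at 30.0%, 32.4% and 22.7%. The endothelial level was 4.46, 9.85 and 6.23 CPM on 11, 12 and 10 counts, which is 90.5%, 67.4% and 66.4% of the proximal-led level in the same library. Slc34a1 stood at 67.0%, 80.8% and 56.5% there, and on so few counts endothelial C3 is not told apart from background. Leukocytes held 4, 7 and 0 C3 counts.

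RNA of other cells was present in the tubule class, and some of it moved with C3. The 21 leukocyte markers together reached 110, 177 and 120 CPM in young, aged and aged D+Q tubule cells, with 20, 21 and 21 markers detected (Cd3e was at 0 in young). The 11 mural markers reached 189, 309 and 248 CPM with Cnn1 at 0 throughout, and the 12 fibroblast markers, all detected, 63.2, 69.8 and 52.3 CPM. The secreted protease inhibitor Slpi, a leading gene of the C3-rich cells described next, had 19, 170 and 26 counts in tubule cells. In the aged library there were 84.1 C3 counts per 100 Slpi counts in tubule cells, 40.0 in endothelial cells and 102 in the cells that pass the Msln-list gate, defined next, whereas aged D+Q tubule cells had 535 and young ones 411. Aged leukocytes had 5.83, from 7 C3 and 120 Slpi counts, and the ratio thus differed between classes of the aged library. The part of RNA from other cells in the tubule C3 level was not tested, as a restriction on marker UMIs need not remove it. In tubule cells with 0 UMIs of the fibroblast, mural, leukocyte and Msln lists, C3 stood at 3.03, 11.1 and 7.35 CPM. The log2 ratios there were 1.86 (1.10 to 2.69) and -0.60 (-1.22 to 0.03).

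**Figure D1:**
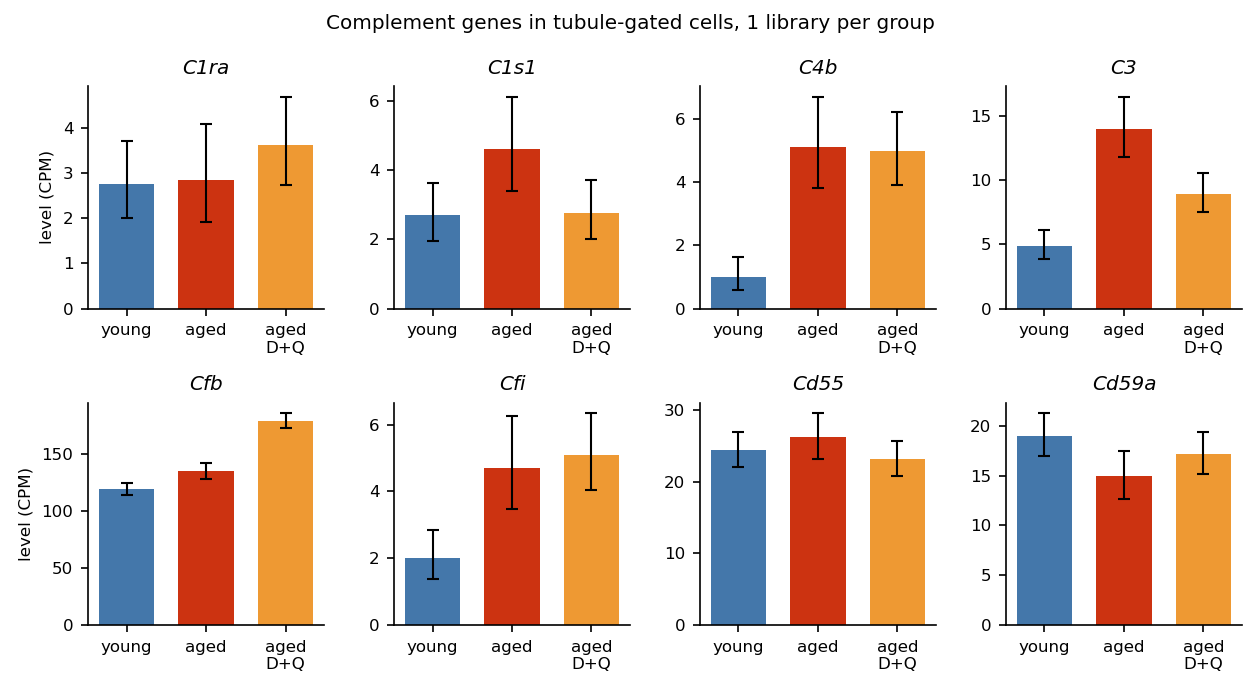
Level of each gene in tubule-gated cells (y axis, CPM from 0) in the young, aged and aged D+Q library (x axis, 1 library each); bars are the level and error bars the 95% Poisson interval, which covers counting error only. C3 was 4.89, 14.0 and 8.96 CPM, C4b and Cfi were higher in both aged libraries than in young, and Cfb was highest in aged D+Q at 179 CPM.

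Most aged stromal C3 counts lay in a small group of cells. Among the 72 aged cells of the fibroblast gate, 20 cells with at least 5 C3 UMIs held 372 of 376 C3 counts (98.9%), with a median of 16.5 and a highest value of 52 C3 UMIs. Only 1 of 101 young and 3 of 96 aged D+Q cells reached 5 UMIs. The 20 aged cells did not look like the other fibroblast-gated cells: they carried 375 counts of Dcn, the matrix proteoglycan decorin, but 3 of Pdgfra, a receptor that marks kidney fibroblasts, while the other 52 cells carried 103 of Dcn and 58 of Pdgfra. Their median was 31 fibroblast, 0 mural and 9 Msln-list UMIs. The Msln list (Msln, Upk3b, Lrrn4, Muc16, Bnc1, Rspo1, Nkain4) holds genes known from mesothelium and was chosen after these cells were seen. Of the 20 cells, 18 had a Upk3b UMI and 16 passed the same gate on this list. Of the 8 urothelium markers, which also hold Upk3b, 2 were detected in them: Upk3b with 85 counts and Upk1b, a uroplakin, with 38 counts in 14 cells. Upk1a, Upk2, Upk3a, Krt5, Krt15 and Trp63 were at 0. The other 52 cells held 2 counts of Upk1b.

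**Figure D2:**
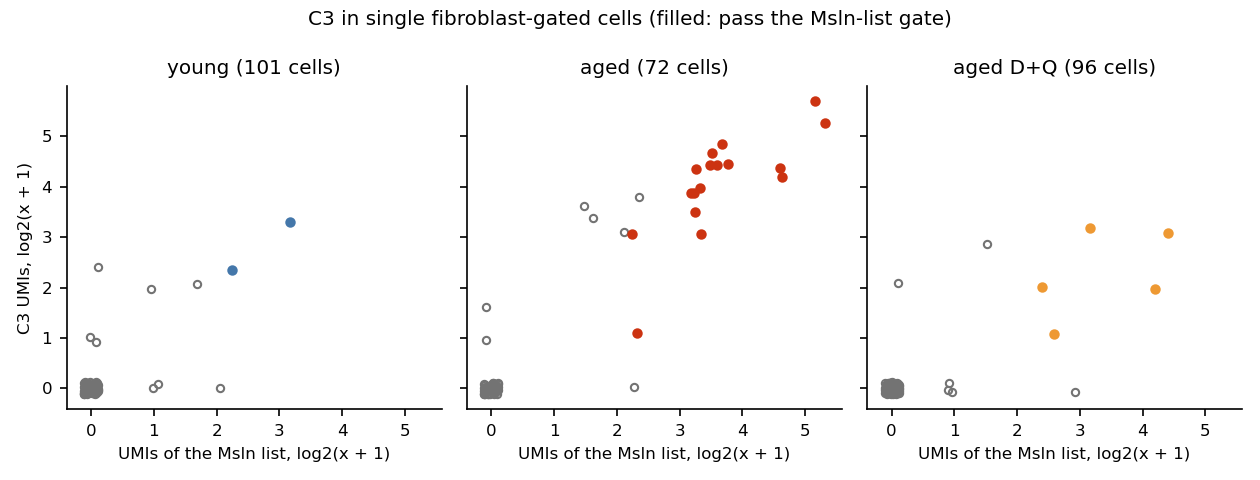
C3 UMIs (y axis) against UMIs of the 7 Msln-list genes (x axis) in each fibroblast-gated cell, both as log2(x + 1) with small random offsets; 1 panel per library, filled points pass the Msln-list gate. In aged, 16 of the 20 cells with at least 5 C3 UMIs passed it; most cells of every library lie at 0 on both axes.

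Over all classes, 6 young, 21 aged and 7 aged D+Q cells passed the Msln-list gate. C3 reached 1167 CPM (713 to 1803) in the young cells, 5563 (5001 to 6171) in the aged and 1675 (1138 to 2377) in the aged D+Q cells, on 20, 357 and 31 counts. It was found in 4 of 6, 20 of 21 and 7 of 7 cells. The gated cells lay in different classes: 17 of the 21 aged cells were in the fibroblast gate, against 2 young cells beside 3 proximal tubule cells and 1 without a gate, and 5 aged D+Q cells beside 2 tubule cells. The levels are therefore not of 1 kind of cell, and those of young and aged D+Q rest on very few cells. Without them, stromal C3 was 27.3, 238 and 33.2 CPM on 12, 45 and 15 counts, and 40 of the aged counts still lay in 4 cells of 5 or more C3 UMIs. With every stromal cell of 5 or more C3 UMIs set aside, which removes high values by construction, C3 was 36.1, 32.5 and 35.02 CPM.

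The upstream sequence of C3 is shown because C3 had the most counts of any member in the aged stromal cells, and its window holds matches to motifs of C/EBP and NF-kB, factors known to act on this gene. It is the 250 bases before the RefSeq start, on the minus strand of chr17:57228137-57228386 (GRCm38.p6), 5′ to 3′, with the matches in capitals.
C3: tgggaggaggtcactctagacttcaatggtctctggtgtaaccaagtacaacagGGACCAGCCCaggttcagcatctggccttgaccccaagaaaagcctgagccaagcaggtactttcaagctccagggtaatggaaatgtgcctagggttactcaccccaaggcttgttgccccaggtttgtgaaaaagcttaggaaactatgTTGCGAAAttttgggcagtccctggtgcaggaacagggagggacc
TTGCGAAA, 45 to 38 bases before the start, matches TTGCNNAA, a form of the C/EBP motif, and GGACCAGCCC, at 196 to 187, is the reverse strand of GGG, 4 bases of any kind, TCC, a loose form of the NF-kB motif. Searched on both strands, these patterns occur in 9.56% and 16.5% of 32851 promoter windows of this length. A match describes the letters only, and the files do not measure binding.

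The classical pathway proteases C1ra and C1s1 stood higher in stromal than in tubule cells in every library. C1ra had 19 counts in young stromal cells (42.7 CPM, 25.7 to 66.6), 42 in aged (180 CPM, 130 to 243) and 13 in aged D+Q (28.0 CPM, 14.9 to 47.9). C1s1 had 41 (92.0 CPM, 66.0 to 125), 42 (180 CPM, 130 to 243) and 34 (73.3 CPM, 50.8 to 102). Aged was highest for both, its intervals lay above those of the other libraries, and young and aged D+Q overlapped. The aged over young log2 ratio was 2.06 (1.26 to 2.94) for C1ra and 0.97 (0.31 to 1.63) for C1s1, and aged D+Q over aged was -2.65 (-3.71 to -1.76) and -1.29 (-1.99 to -0.61).

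Much of the aged signal was again in the Msln-list cells. Over all classes these 21 cells held 26 counts of C1ra and 28 of C1s1, found in 12 and 16 cells, against 0 counts in the 6 young cells and 1 and 0 in the 7 aged D+Q cells. In the 6 young cells 3 counts would give 175 CPM. The aged C1ra and C1s1 levels of 405 and 436 CPM were 2.31-fold and 2.49-fold this value, counting error left out. Without these cells stromal C1s1 was 93.2, 84.6 and 75.2 CPM and its aged over young log2 ratio -0.11 (-1.07 to 0.72). C1ra was 43.2, 84.6 and 28.8 CPM, with a ratio of 0.98 (-0.09 to 2.01) for aged over young and -1.55 (-2.73 to -0.41) for aged D+Q over aged.

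In tubule cells both proteases were low. C1ra had 44, 29 and 56 counts (2.76, 2.85 and 3.61 CPM), with overlapping intervals in all 3 libraries. C1s1 had 43, 47 and 43 counts (2.70, 4.61 and 2.77 CPM), and its aged over young ratio of 0.77 (0.15 to 1.41) was 0.11 (-1.28 to 1.35) in tubule cells with 0 UMIs of the other lists. In stromal cells both genes stood far above the tubule: C1s1 at 3494%, 4014% and 2715% of the proximal-led level in young, aged and aged D+Q and C1ra at 1465%, 6904% and 839%, where Slc34a1 stood at 40.9%, 32.3% and 30.4%. C1ra and C1s1 have paralogues (C1rb, C1s2), C1s1 has an overlapping antisense gene in the GENCODE annotation, and the assignment of shared reads is not stated. Leukocytes held 0 counts of C1ra in each library, where 3 counts would give 16.8, 20.7 and 27.8 CPM, and 0, 1 and 0 of C1s1.

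The upstream sequences of these proteases are shown because both genes lie on chromosome 6 and their profiles had the highest correlation of any pair of members. Over 15 profiles (5 classes by 3 libraries) the Pearson correlation of log2(CPM + 1) was 0.91 between C1ra and C1s1, 0.80 between C1s1 and C3 and 0.74 between C1ra and C3. The profiles of 1 library share its depth and its background RNA, so these values are a description. The windows are chr6:124512371-124512620, plus strand, for C1ra and chr6:124542360-124542609, minus strand, for the first of 2 C1s1 starts, both GRCm38.p6.
C1ra: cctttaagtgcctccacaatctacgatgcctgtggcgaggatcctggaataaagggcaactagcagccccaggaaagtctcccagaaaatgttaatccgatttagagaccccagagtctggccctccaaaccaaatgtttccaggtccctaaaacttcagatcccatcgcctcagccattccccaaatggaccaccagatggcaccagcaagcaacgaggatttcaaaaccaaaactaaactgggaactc
C1s1: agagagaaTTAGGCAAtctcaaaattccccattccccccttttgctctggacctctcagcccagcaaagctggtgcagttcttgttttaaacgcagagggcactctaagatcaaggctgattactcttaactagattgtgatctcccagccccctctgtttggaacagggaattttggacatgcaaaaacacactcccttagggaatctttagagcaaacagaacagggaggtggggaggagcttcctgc
The capitals in C1s1 mark TTAGGCAA, the reverse strand of the TTGCNNAA pattern, 242 to 235 bases before the start. Also searched on both strands were TATAAA (12.4% of all windows), TTCNNNGAA (7.02%) and GAAA, 2 bases of any kind, GAAA (2.98%). None of the 5 patterns had a match in the C1ra window or in that of the other C1s1 start, which is not printed. This says only that these letters are not in those windows.

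C4b, the source of C4 that C1s cleaves, was higher in both aged libraries than in young in tubule cells. In tubule cells it had 16 counts in young (1.00 CPM, 0.57 to 1.63), 52 in aged (5.10 CPM, 3.81 to 6.69) and 77 in aged D+Q (4.96 CPM, 3.92 to 6.20). Both aged libraries lay above young and overlapped each other. The aged over young log2 ratio was 2.32 (1.51 to 3.25) and that of aged D+Q over aged -0.05 (-0.57 to 0.49). The near-identical gene C4a had 15, 45 and 61 counts in the same cells, and the assignment of reads shared by both genes is not stated, so C4b values there may hold C4a reads.

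In stromal cells C4b had 0, 44 and 5 counts, or 0, 189 (137 to 253) and 10.8 CPM (3.4995 to 25.2). In young 3 counts would give 6.73 CPM, and the aged level was 28.0-fold this value, counting error left out. Over all classes the Msln-list cells held 38 aged counts, in 13 of 21 cells. Stromal C4a had 0, 0 and 1 counts. Without the Msln-list cells 6 aged C4b counts remained, or 31.7 CPM, 4.65-fold the level that 3 counts would give in young. In leukocytes C4b had 0, 11 and 3 counts, the 11 in 6.67% of the 45 aged cells, which is 3 cells.

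Cfb, the protease of the alternative pathway, was the 1 member whose tubule level was highest in aged D+Q beyond counting error. It had 1894 counts in young tubule cells (119 CPM, 114 to 124), 1372 in aged (135 CPM, 128 to 142) and 2773 in aged D+Q (179 CPM, 172 to 185). The 3 intervals did not overlap. The log2 ratio was 0.18 (0.08 to 0.28) for aged over young and 0.41 (0.31 to 0.50) for aged D+Q over aged, that is 1.33-fold, both short of 1.5-fold. With cells of over 25% mitochondrial counts left out the ratios were 0.31 and 0.24, so both depend in size on this limit.

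Thinned to 1000 UMIs, a Cfb UMI was held by 11.1% (10.3 to 11.9) of young tubule cells, by 11.4% (10.6 to 12.4) in aged and by 15.9% (14.99 to 16.8) in aged D+Q. Young and aged overlapped and aged D+Q lay above both; without thinning the shares were 23.4%, 21.2% and 30.9%. Proximal-led cells carried 123, 139 and 187 CPM and distal-led cells 73.4, 69.0 and 95.5 CPM. The distal-led level was 59.7%, 49.7% and 51.0% of the proximal-led level, where Slc34a1 stood at 30.0%, 32.4% and 22.7%. In endothelial cells Cfb reached 73.3%, 75.0% and 61.9% of the proximal-led level and Slc34a1 67.0%, 80.8% and 56.5%, and in leukocytes Cfb reached 59.1%, 34.7% and 54.4% and Slc34a1 71.7%, 76.6% and 68.7%. Cfb was above Slc34a1 in young and aged D+Q endothelial cells and below it in aged endothelial cells and in leukocytes. Whether these counts come from free RNA was not tested.

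Stromal Cfb took another course. It had 29 counts in young (65.1 CPM, 43.6 to 93.5), 51 in aged (219 CPM, 163 to 287) and 45 in aged D+Q (97.0 CPM, 70.8 to 130). Aged lay above the others, which overlapped. Relative to proximal-led cells this was 53.0%, 157% and 51.9%. Over all classes the Msln-list cells held 28 aged counts, in 13 of 21 cells, and without them the stromal counts were 29, 24 and 42, the levels were 65.9, 127 and 92.9 CPM and the aged D+Q over aged log2 ratio went from -1.17 (-1.78 to -0.57) to -0.46 (-1.21 to 0.34). Cfb overlaps a same-strand readthrough gene that joins it to C2 in the GENCODE annotation, and reads from both cannot be told apart here.

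**Figure D3:**
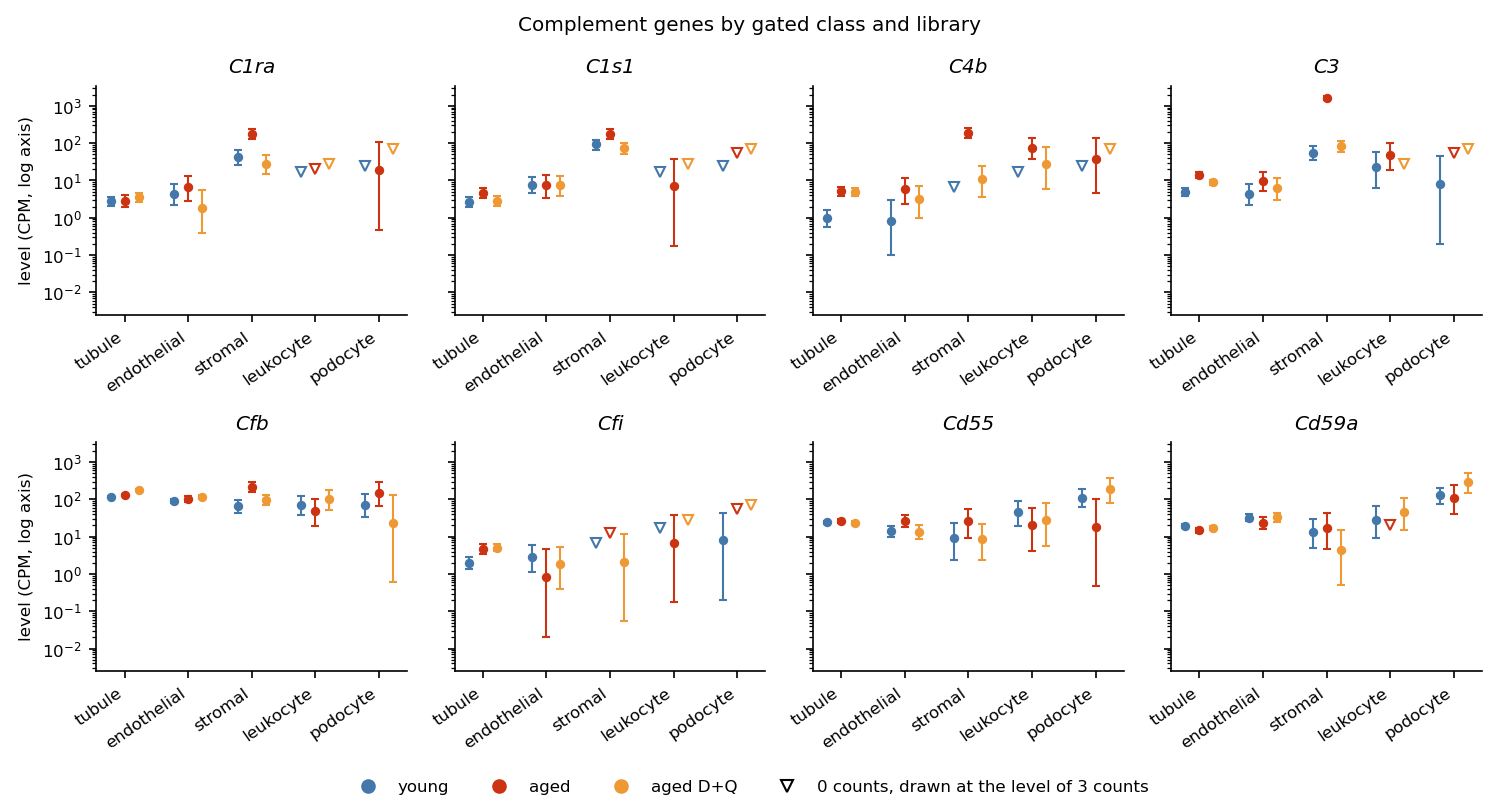
Level of each gene (y axis, CPM on a log axis) in 5 gated classes (x axis) by library; points are the level, bars the 95% Poisson interval, and open triangles stand for 0 counts, drawn at the level that 3 counts would give. C3, C4b, C1ra and C1s1 stand highest in aged stromal cells, at 1620, 189, 180 and 180 CPM, and Cd59a in aged D+Q podocytes at 285 CPM.

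Cfi, the protease that inactivates C3 and C4 fragments, was higher in both aged libraries than in young in tubule cells. It had 32 counts in young (2.01 CPM, 1.37 to 2.83), 48 in aged (4.71 CPM, 3.47 to 6.25) and 79 in aged D+Q tubule cells (5.09 CPM, 4.03 to 6.34). The aged libraries lay above young and overlapped. The log2 ratio was 1.22 (0.56 to 1.92) for aged over young and 0.11 (-0.42 to 0.66) for aged D+Q over aged. In tubule cells with 0 UMIs of the other lists the first was 0.83 (-0.26 to 1.90), on 17 and 16 counts in young and aged. Stromal cells held 0, 0 and 1 Cfi counts and endothelial cells 7, 1 and 3. The endothelial level was 146%, 16.7% and 37.0% of the proximal-led level, on too few counts to rank the classes.

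Cd55, the membrane regulator that dissociates convertases, differed little between libraries in tubule cells. It had 389, 267 and 359 counts, or 24.4 (22.0 to 26.9), 26.2 (23.2 to 29.6) and 23.1 CPM (20.8 to 25.7) in young, aged and aged D+Q, and all intervals overlapped. Proximal-led cells (25.9, 26.8 and 24.6 CPM) stood above distal-led cells (10.3, 15.5 and 8.42 CPM), whose aged interval of 7.10 to 29.5 overlapped that of the proximal-led cells. Endothelial Cd55 had 35, 32 and 22 counts, or 14.2, 26.3 and 13.7 CPM, with an aged over young log2 ratio of 0.89 (0.15 to 1.62) and an aged D+Q over aged ratio of -0.93 (-1.79 to -0.11). This was 54.8%, 97.9% and 55.6% of the proximal-led level, where Slc34a1 stood at 67.0%, 80.8% and 56.5%. Whether the endothelial counts come from RNA of other cells was not tested. The Cd55 level was highest in podocytes in young and aged D+Q (112 and 190 CPM on 14 and 8 counts, against 1 count in aged), where 39.4%, 4.35% and 31.2% of 33, 23 and 16 cells held a UMI. An antisense gene overlaps Cd55 in the GENCODE annotation, and whether the counting used strand is not stated.

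Cd59a, which blocks the membrane pore, was the 1 member with a lower level in aged than in young tubule cells. It had 303 counts in young (19.0 CPM, 16.9 to 21.3), 152 in aged (14.9 CPM, 12.6 to 17.5) and 267 in aged D+Q (17.2 CPM, 15.2 to 19.4). The intervals of young and aged overlapped slightly, and aged D+Q overlapped both. The aged over young log2 ratio of -0.35 (-0.64 to -0.06) was -0.17 (-0.51 to 0.16) in proximal-led cells and -0.28 (-0.95 to 0.31) in distal-led cells. The 2 tubule sets differ in Cd59a level, and distal-led cells made up 8.38%, 4.92% and 9.03% of the kept cells.

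Within every library Cd59a was higher in distal-led than in proximal-led tubule cells. The levels were 63.8 (51.5 to 78.1) against 14.2 CPM (12.3 to 16.3) in young, 51.8 (34.9 to 73.9) against 12.6 (10.5 to 15.1) in aged and 45.6 (35.2 to 58.2) against 14.3 (12.4 to 16.5) in aged D+Q. The intervals did not overlap in any of the 3 libraries. Podocytes stood at 128, 112 and 285 CPM on 16, 6 and 12 counts, and endothelial cells at 32.4, 23.8 and 33.0 CPM, which is 228%, 188% and 230% of the proximal-led level and above Slc34a1 there. The order podocyte, distal-led, endothelial, proximal-led held in each library, though podocyte and distal-led intervals overlapped in young and aged, and distal-led and endothelial intervals overlapped in aged D+Q. The paralogue Cd59b had 63, 47 and 62 tubule counts, and the assignment of shared reads is not stated.

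**Figure D4:**
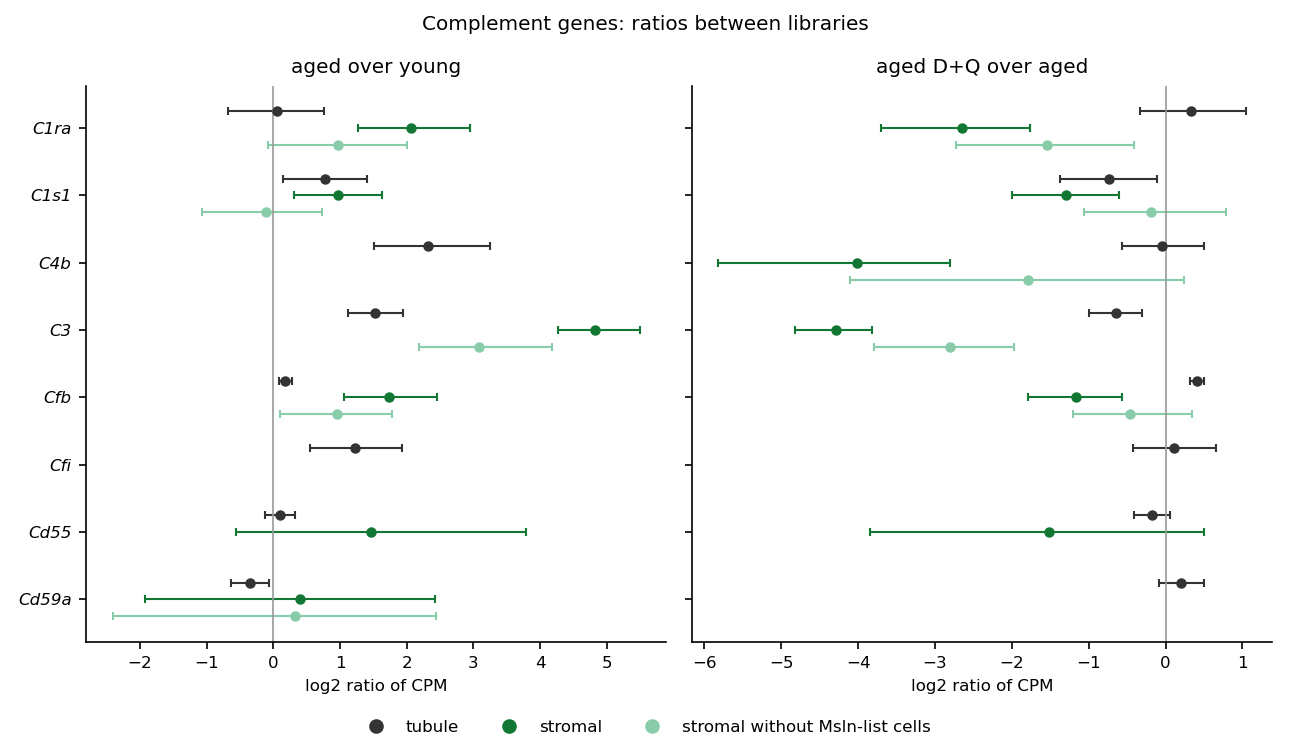
Log2 ratio of CPM (x axis) of each gene (rows) for aged over young (left) and aged D+Q over aged (right) in tubule cells, stromal cells and stromal cells without the Msln-list cells; bars are 95% exact binomial intervals, and ratios with a count of 0 or under 8 counts in all are not drawn. Stromal C3 was 4.83 and -4.29, and 3.08 and -2.81 without these cells, against 1.52 and -0.65 in tubule cells.

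Counted over the list, few members passed 1.5-fold in tubule cells. Only 4 of the 8 had at least 30 counts and a mean of 5 CPM over young and aged, and of these C3 was 1.5-fold higher in aged and 0 were lower, where 4.38% of the 11505 genes measured were higher and 3.02% lower. C3 was under 5 CPM in young and passed this filter through its aged level, so the count is no measure of the whole list. The members' median log2 ratio was 0.14 and that of all genes 0.07. With no filter on low counts, 4 of 8 were higher (C3, C4b, Cfi and C1s1), where 18.7% of 24290 genes were and 16.3% were lower. For aged D+Q over aged, 5 members were measured, 0 were higher and C3 was lower, where 1.42% of 11441 genes were higher and 2.26% lower. The C3 ratio of -0.65 lay near the limit, and C3 no longer passed 1.5-fold under a looser gate (-0.49), a 25% mitochondrial limit (-0.563), TMM scaling (-0.581) or without the tubule cells of 5 or more C3 UMIs (-0.52). With no filter C3 and C1s1 were lower, against 14.2% of genes higher and 18.7% lower. The 2 comparisons share the aged library, so its high C3 enters both.

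In stromal cells 5 members were measured in each comparison. C3, C4b, Cfb, C1s1 and C1ra were all 1.5-fold higher in aged than young, where 16.3% of 4892 genes were higher and 14.8% lower, and all were lower in aged D+Q than aged, where 13.6% of 5032 were higher and 14.9% lower. Their median log2 ratios were 2.06 and -2.65, against -0.02 and -0.002 for all genes. In young, C3, Cfb and C1ra lay below the minimum count of the filter, and C4b had no count. These members passed the filter only with their aged counts. For aged D+Q over aged this held for C4b and C1ra, whereas C1s1 reached the minimum in each library. Each member past 1.5-fold without the Msln-list cells, given next, also passed only with its aged counts. The counts and medians are therefore no measure of the whole list, and both comparisons share the aged library. Without the Msln-list cells 3 of 4 measured members were higher in aged (C3, Cfb and C1ra; background 13.6% higher, 12.7% lower) and 1 of 3, C3, was lower in aged D+Q (background 11.6% higher, 12.4% lower). In endothelial cells 3 members were measured: Cd55 was higher in aged, where 9.16% of genes were higher and 7.23% lower, and lower in aged D+Q, where 7.61% were higher and 8.74% lower, and Cfb and Cd59a stayed within 1.5-fold. Set against proximal-led cells, endothelial Cd55 was below Slc34a1 in young, near it in aged D+Q and above it in aged.

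Of the other 46 complement genes, 14 were measured in tubule cells. Aged was 1.5-fold higher than young for C7, a pore component, at 4.89 and 12.7 CPM (log2 ratio 1.37, 0.96 to 1.80), and for Serping1, the inhibitor of C1r and C1s, at 11.2 and 18.1 CPM (0.69, 0.38 to 0.99). Both stood far higher in stromal cells: in young, aged and aged D+Q, C7 was 180, 519 and 604 CPM and Serping1 303, 857 and 399 CPM. Whether the tubule counts come from RNA of other cells was not tested. Aged was lower for Cfd, factor D or adipsin, a product of fat cells, at 44.1 and 7.56 CPM (-2.54, -2.90 to -2.20). Young Cfd was also found in every other class. In endothelial cells it was 29.6, 29.5 and 1.25 CPM in young, aged and aged D+Q, so young and aged did not differ there. Stromal cells held 13, 0 and 1 Cfd counts and leukocytes 10, 1 and 0. Whether tubule Cfd comes from RNA of other cells was not tested. In aged D+Q against aged, the chaperone clusterin (Clu), a fluid-phase inhibitor of the pore, was higher at 178 against 110 CPM (0.69, 0.59 to 0.80), and C7 (-0.70), C8a (-0.62) and Cfd (-1.58) were lower. The other 11 and 10 measured genes stayed within 1.5-fold.

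**Figure D5:**
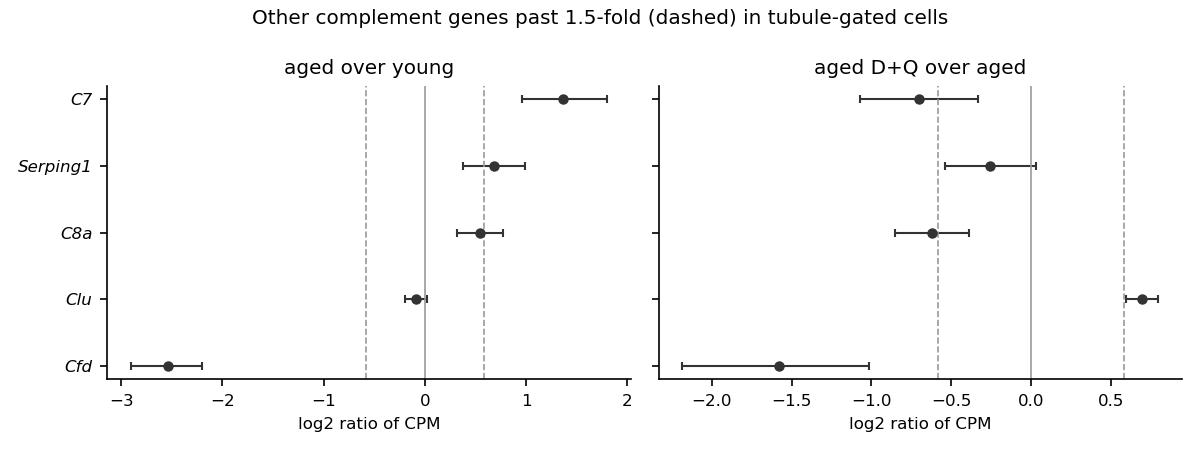
Log2 ratio of CPM (x axis) of the 5 other complement genes past 1.5-fold in either comparison in tubule cells (rows) for aged over young (left) and aged D+Q over aged (right), with 95% exact binomial intervals and dashed lines at 1.5-fold. Cfd lies lowest at -2.54 and -1.58, C7 highest on the left at 1.37 and Clu highest on the right at 0.69.

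The partners of the members showed the following levels. C2, which C1s cleaves and which forms a convertase with C4, was 22.3, 33.1 and 30.4 CPM in young, aged and aged D+Q tubule cells and 15.7, 197 and 53.9 CPM in stromal cells, with 46 aged counts; the Msln-list cells of all classes held 35. Cfd over all kept cells had 1019 young, 132 aged and 47 aged D+Q counts, or 47.2, 10.0 and 2.45 CPM. The C1q chains C1qa, C1qb and C1qc, known from macrophages, had 13, 7 and 18 counts in young leukocytes, 17, 10 and 14 in aged and 1, 4 and 9 in aged D+Q.

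Tubule cells were also divided by a UMI of any of 5 injury markers: Havcr1, the injury molecule KIM-1, Vcam1, Lcn2, Krt20 and Spp1, osteopontin. Such a UMI was held by 2543 young, 1746 aged and 2927 aged D+Q cells after thinning, and by 4146, 2620 and 4437 without. Most young tubule cells thus held a marker UMI without thinning, and the division need not separate injured from uninjured cells. After thinning, C3 was found in 0.354% of young tubule cells with a marker UMI and 0.290% without, in 1.55% and 1.03% in aged, and in 1.02% and 0.805% in aged D+Q. The intervals of each pair overlapped. Without thinning these shares were 0.941% and 0.731%, 2.86% and 1.505%, and 2.05% and 1.27%, where the aged pair did not overlap (2.26 to 3.58 against 1.05 to 2.09). Cfb after thinning was found in 12.1% and 10.4% in young, 13.2% and 10.5% in aged, and 17.7% (16.3 to 19.1) and 14.4% (13.2 to 15.6) in aged D+Q. The aged D+Q pair did not overlap, the young pair overlapped, and the aged bounds of 11.621 and 11.614 all but met. Spp1 set most of this division, since each of the other 4 markers was seen in 69 or fewer thinned tubule cells of a library; by Spp1 alone the aged Cfb shares of 13.0% and 10.6% overlapped.

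Vcam1, an adhesion molecule singled out from the 5 markers after its values were seen, gave a wider division of C3 than the 5 together. Without thinning C3 was found in 5 of 123 young tubule cells with a Vcam1 UMI, or 4.07% (1.33 to 9.23), against 0.805% (0.598 to 1.06) of those without. In aged it was found in 8 of 126, or 6.35% (2.78 to 12.1), against 2.12% (1.73 to 2.56), and in aged D+Q in 16 of 125, or 12.8% (7.50 to 20.0), against 1.59% (1.30 to 1.93). The pair did not overlap in any of the 3 libraries, and median depths were 2409 and 2321.5, 1934 and 1828, and 2309 and 2233 counts. After thinning C3 was found in 1 of 58, 3 of 62 and 2 of 69 cells with Vcam1, and each interval overlapped that of the cells without. A wide division was not particular to Vcam1. Without thinning C3 was found in 3 of 15 aged cells with Havcr1, 2 of 22 young with Lcn2 and 2 of 7 aged D+Q with Krt20. Each of these intervals lay above that of the cells without. All other pairs of Havcr1, Lcn2 and Krt20 overlapped, with C3 in 0 of 6 young Havcr1 cells and 0 of 29 aged D+Q Lcn2 cells.

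The genes with the most similar profile over the 15 class and library values were Ap4e1 (Pearson r 0.95), Spock2 (0.95) and Dgcr2 (0.93) for C3, Khdrbs3 (0.99), Prelp (0.99) and Plac9 (0.98) for C1s1, and Zmynd15 (0.98), Usp13 (0.97) and Prx (0.96) for C1ra. They were Ezr, Hdgf and Hrg (0.86 to 0.85) for Cfb and Bahd1, Smim5 and Epn3 (0.94 to 0.92) for Cd59a. The closest genes to Cfi and Cd55 mostly had provisional names. With 15771 genes compared over few profiles that share libraries, these values describe the profiles and carry no p.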

How the data were processed

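Values were the raw UMI counts per gene and barcode that the authors deposited for 3 kidney libraries; per the labels' protocols, collagenase-digested cells went through a MobiCube 3′ kit. No aligner, counting rule or barcode filter is stated in the sources used, and the submitters' processing notes name GRCm39 and mm10 without roles. Barcode totals were 24346733 young, 13944270 aged and 21058975 aged D+Q counts. Barcodes with over 50% mitochondrial counts (385, 82 and 149) were left out, and 0 had under 200 genes. Scrublet's automatic threshold in scanpy 1.11.5 called 1, 0 and 2 doublets, taken as not having worked, so 536, 236 and 472 barcodes above the score quantile of 0.8% per 1000 were left out. Cells passing 2 or more of the endothelial, stromal, leukocyte, podocyte and urothelium gates (275, 197 and 200) were set aside; the stromal gate is fibroblast or mural, and tubule cells passed none of these. Cells of the planned distal class held a median of 33, 31 and 34 proximal against 10, 11 and 9 distal UMIs, so tubule cells were also divided by which marker sum was larger.

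Counts were summed per class and library, and log2 ratios used a prior of 0.5 counts. Where a gene had 0 counts, the level of 3 counts was set in its place, which is not a confidence limit. Intervals are exact Poisson, conditional binomial and Clopper-Pearson at 95%. A gene counted as measured with 30 counts and a mean of 5 CPM in the libraries compared. Ratios were tested on simulated counts. Thinned shares are from the first of 2 seeded draws. Named were all members, listed complement genes with at least 30 counts, and the 3 most similar profiles; 1 listed gene and the profiles most like C4b are not reported here. Members and lists were chosen with earlier results of these data known; the Msln list, the proximal-led and distal-led division and 3 restrictions were added after seeing them. Alternatives were other gates, filters and scalings, with TMM from edgeR 4.0.16 in R 4.3.3. Promoters are from RefSeq (GRCm38.p6; 5 of 8 members had an entry). Tools were Python 3.11.15, numpy 2.4.6, pandas 2.3.3, scipy 1.17.1, anndata 0.12.19 and matplotlib 3.10.9.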

Additional observations from a re-analysis of the deposited data

Results flagged for a closer look

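Cfb moved in opposite directions in tubule and stromal cells between the same libraries. Its log2 ratio of aged D+Q over aged was 0.41 (0.31 to 0.50) in tubule cells and -1.17 (-1.78 to -0.57) in stromal cells. The difference between the classes was not tested, since each side rests on 1 library per group. In stromal cells without the Msln-list cells the ratio was -0.46 (-1.21 to 0.34).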

How the results depend on the processing

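For 34 results, 214 alternative values were computed. Of these, 184 stayed within the interval of the main value or within 1.5 times a main count, and 29 moved beyond it. The remaining 1 changed the sign of a main ratio past 1.5-fold. A change of sign in a smaller main ratio was not counted as a turn. The tubule log2 ratio of C3 ranged from 1.23 to 1.86 for aged over young (main 1.52) and from -0.70 to -0.49 for aged D+Q over aged (main -0.65). The stromal ratio of C3 for aged over young (main 4.83) was 3.03 under the looser gate of 3 UMIs from 2 markers and 3.08 without the Msln-list cells. For aged D+Q over aged (main -4.29) it was -3.05 under the looser gate, -5.81 under the stricter gate of 6 UMIs from 4 markers and -2.81 without the Msln-list cells. Without them the aged over young ratio of C1s1 in stromal cells turned from 0.97 to -0.11, on fewer cells. The count of members past 1.5-fold in tubule cells went from 1 to 4 for aged over young with no filter on low counts. For aged D+Q over aged it went from 1 to 2 with no filter and to 0 under the looser gate, the 25% mitochondrial limit, TMM scaling and a 2-fold threshold. The cause of the other shifts was not tested. No paired analysis was possible because each group has 1 library. Depth limits leukocytes (39 to 45 cells of a library), where 0 members were measured, and podocytes (16 to 33 cells), whose levels rest on 16 or fewer counts of a gene.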
